A study of Mus musculus with 16 samples.

Results

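Transcripts of the mitochondrial genome were examined in sorted leukaemia cells of a mouse that models pro-B acute lymphoblastic leukaemia in infants. The genes were chosen by their symbol alone, which starts with mt-. This gave 37 of the 55414 gene identifiers in the count table: 13 protein-coding genes, 2 ribosomal RNA genes and 22 transfer RNA genes. Of these, 34 had a mean of at least 10 counts over all libraries and were tested (all 13 protein-coding, both ribosomal RNA and 19 transfer RNA genes). mt-Tl2, mt-Tr and mt-Ts2, transfer RNAs for leucine, arginine and serine, fell below that level with means of 9.38, 6.75 and 2 counts.

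All 16 libraries came from animals that carried the Kmt2a-AFF1 fusion and overexpressed the microRNA miR-128a, and all were labelled Pro B-ALL. The cells were leukaemia-propagating cells (LPC) sorted from bone marrow (BM) or from the central nervous system (CNS). The label LSK_IL7R stood for cells negative for lineage markers and positive for cKit, Sca1 and IL7R, written LSK here. The label LK/CLP stood for lineage-negative, Sca1-negative, cKit-positive cells, written LK here. There were 4 bulk libraries each of BM LSK, BM LK, CNS LSK and CNS LK, and no group held normal cells. The promoter behind the transgenes, the age of the mice and the number of animals per library are not given in the sources used here. The question set by the design was whether RNA levels differed by niche (CNS against BM) and by LPC type (LSK against LK).

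Library depth ran from 19.2 to 29.2 M (mega) counts. The B-lineage transcription factors Pax5 and Ebf1 averaged 0.596 and 0.670 counts-per-million units (CPM) over the 16 libraries. Rag1 and Dntt, enzymes of antigen-receptor recombination in immature lymphocytes, averaged 276.5 and 78.7 CPM. Of the T-lineage genes, Bcl11b and Lck averaged 292 and 223 CPM, while the T-cell receptor subunits Cd3e, Cd3d and Cd3g averaged 0.277, 0.676 and 0.572 CPM. Kit averaged 139 and Il7r 83.3 CPM, while Ly6a, which encodes Sca1, averaged 1.06 CPM. The summed markers of microglia and brain macrophages stayed between 4.49 and 7.64 CPM, and those of erythroid cells between 2.14 and 3.92 CPM. Neural, glial and meningeal markers summed to between 33.9 and 62.7 CPM, of which Mbp alone held 28.6 to 52.2 CPM.

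The mitochondrial genome is a small circle that is copied into RNA from both strands as long precursors. Transfer RNAs lie between most of the other genes, and their excision frees the ribosomal and messenger RNAs. The messenger RNAs encode core subunits of respiratory complexes I, III, IV and V, while the other subunits and the machinery that transcribes, processes and translates these RNAs are made from nuclear genes. In a bulk library, fewer cells of a type and less mitochondrial RNA per cell cannot be told apart.

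The sequences that the results turn on are shown 5′ to 3′ in lower case, from GENCODE M21 transcripts of the GRCm38 assembly. The first set holds the 5 transfer RNAs with the highest level per length, for glycine, valine, proline, lysine and asparagine. Capitals mark the anticodon where its letters, with a t before and an a or g after them, fitted a single place in the expected stretch. For mt-Tv the anticodon letters tac occur in that stretch but follow a c, so the rule was not met and the whole sequence is in lower case.
mt-Tg: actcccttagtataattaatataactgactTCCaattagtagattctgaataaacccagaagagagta
mt-Tv: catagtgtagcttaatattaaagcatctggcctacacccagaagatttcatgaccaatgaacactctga
mt-Tp: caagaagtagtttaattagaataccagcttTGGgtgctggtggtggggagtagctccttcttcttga
mt-Tk: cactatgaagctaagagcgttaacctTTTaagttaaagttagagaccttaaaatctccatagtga
mt-Tn: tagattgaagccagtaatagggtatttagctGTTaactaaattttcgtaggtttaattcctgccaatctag

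In the mouse mitochondrial genome (chromosome M), mt-Tg lay at chrM:9391-9458 on the plus strand, between mt-Co3 and mt-Nd3. mt-Tv lay at chrM:1025-1093 on the plus strand, between both ribosomal RNA genes, and mt-Tk at chrM:7700-7764 on the same strand. mt-Tn (chrM:5089-5159) and mt-Tp (chrM:15356-15422) lay on the minus strand.

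The second set shows where messenger RNA genes share bases, since the counts of such neighbours are not fully separate. The capitals mark the last 43 bases of mt-Atp8, which are also the first bases of mt-Atp6, and the last 7 bases of mt-Nd4l, which are also the first of mt-Nd4. Both encode small subunits, mt-Atp8 of complex V and mt-Nd4l of complex I. mt-Nd5 and mt-Nd6 share 14 bases on opposite strands.
mt-Atp8: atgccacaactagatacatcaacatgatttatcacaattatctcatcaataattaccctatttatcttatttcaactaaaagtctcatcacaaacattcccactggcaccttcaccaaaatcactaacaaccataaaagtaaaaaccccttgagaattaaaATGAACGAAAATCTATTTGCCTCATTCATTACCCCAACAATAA
mt-Nd4l: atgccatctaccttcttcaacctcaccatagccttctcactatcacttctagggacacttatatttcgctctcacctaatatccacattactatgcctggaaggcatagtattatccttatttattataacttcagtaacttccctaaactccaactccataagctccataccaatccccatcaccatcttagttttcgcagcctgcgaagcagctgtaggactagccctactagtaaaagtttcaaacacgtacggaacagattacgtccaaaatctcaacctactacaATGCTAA

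The third set compares mt-Nd3 (chrM:9459-9806 on the plus strand), a subunit of complex I, with its nuclear copy Gm28438 (chr1:24612775-24613119 on the minus strand), an annotated pseudogene. Over 345 aligned bases they differ at a single base, T3C, counted from 1 at the 5′ end of mt-Nd3 with the mitochondrial base first and shown in capitals. The first 150 of these bases are printed.
mt-Nd3: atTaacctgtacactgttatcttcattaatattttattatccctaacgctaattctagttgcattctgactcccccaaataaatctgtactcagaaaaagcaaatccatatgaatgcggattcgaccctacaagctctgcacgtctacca
Gm28438: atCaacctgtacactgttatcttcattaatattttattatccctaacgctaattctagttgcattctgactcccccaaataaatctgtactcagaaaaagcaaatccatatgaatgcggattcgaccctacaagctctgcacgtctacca

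Ribosomal RNA made up most of the mitochondrially encoded counts, and its share overlapped between the 4 groups. It held 4.76 ± 0.214% of all counts in BM LSK, 4.46 ± 0.399% in CNS LSK, 4.67 ± 0.365% in BM LK and 4.41 ± 0.854% in CNS LK (SD, n = 4 each). Single libraries ran from 3.62% in CNS LK 1 to 5.35% in CNS LK 4, so the CNS LK group alone spanned the range of all 16 libraries. The 13 messenger RNAs together held 0.819 ± 0.0704%, 0.8285 ± 0.0987%, 0.840 ± 0.0484% and 0.826 ± 0.134% of all counts in the same order of groups. Their lowest and highest libraries were again CNS LK 1 (0.683%) and CNS LK 4 (0.998%). The 22 transfer RNAs together held 0.0195 ± 0.0110%, 0.0233 ± 0.00903%, 0.0154 ± 0.00409% and 0.0150 ± 0.00341%.

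The 95% exact binomial interval of a library's share reached at most 0.227% of the value to either side for ribosomal RNA, 0.531% for messenger RNA and 3.67% for transfer RNA. These intervals cover counting error only, and the differences between libraries of one group were larger. BM and CNS libraries of the same LPC type and number carry the same code in the labels, which gives 8 numbered pairs, although the labels do not say what the code means. The CNS library had the lower ribosomal RNA share in 5 of 8 pairs, the lower messenger RNA share in 4 of 8 and the lower transfer RNA share in 3 of 8. Counts of ribosomal RNA per count of messenger RNA ran from 4.69 in CNS LSK 4 to 6.20 in BM LSK 1.

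**Figure D1:**
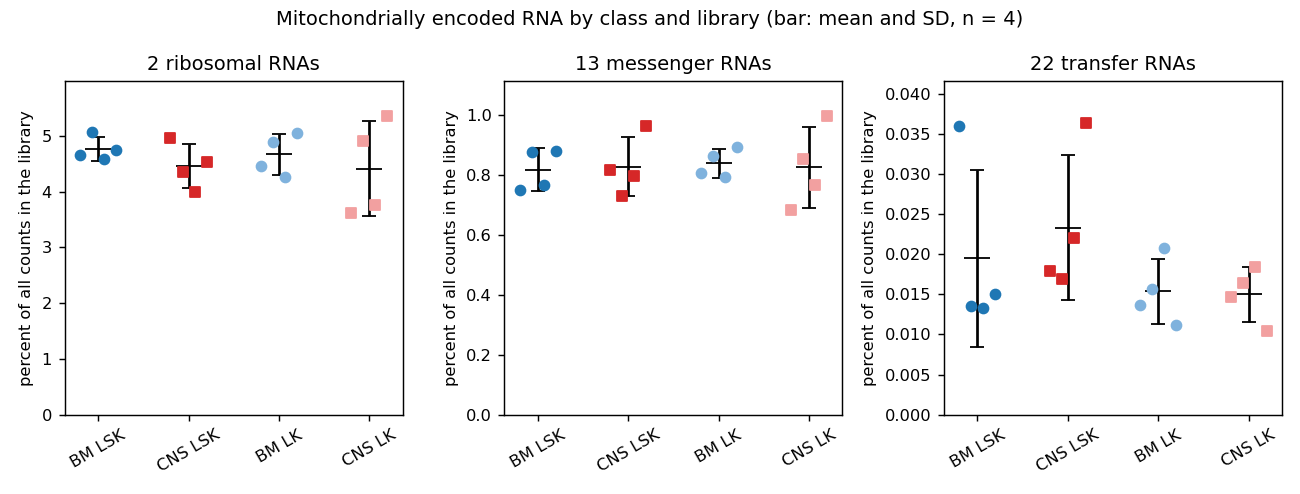
Share of all counts in a library (percent, vertical axis, from 0) held by the 2 ribosomal RNAs, the 13 messenger RNAs and the 22 transfer RNAs in the 4 groups. Each point is a library and bars show mean and SD (n = 4). Ribosomal and messenger RNA shares overlap between all groups, and BM LSK 1 (0.0361%) and CNS LSK 4 (0.0365%) stand above the other libraries in transfer RNA.

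Levels of different genes were compared as CPM per kilobase of gene, averaged over the 16 libraries with their SD. mt-Rnr2 and mt-Rnr1, the large and the small mitochondrial ribosomal RNA, stood at 19120 ± 1639 and 16340 ± 1917 CPM per kb. mt-Rnr2 exceeded mt-Rnr1 in every one of the 16 libraries, by a ratio per base of 1.05 to 1.29. The highest messenger RNA, mt-Atp6 of complex V, followed at 1379 ± 161 CPM per kb, with no overlap between its libraries and those of mt-Rnr1.

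Among messenger RNAs, the catalytic subunits of complex IV came next: mt-Co1 at 1327 ± 114 and mt-Co2 at 1151 ± 123 CPM per kb. mt-Atp6 was above mt-Co1 in 12 of 16 libraries, so these neighbours in the order did not differ beyond their spread. mt-Atp8 of complex V stood at 894 ± 115 CPM per kb. mt-Cytb, the only mitochondrially encoded subunit of complex III, stood at 695 ± 88.2 CPM per kb. The third complex IV subunit, mt-Co3, had 669 ± 76.8 CPM per kb, close to mt-Nd1 of complex I at 662 ± 87.4. mt-Co3 was above mt-Nd1 in 9 of 16 libraries and below mt-Cytb in 11 of 16.

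The other complex I subunits filled the lower end of the order. mt-Nd5 had 597 ± 47.5, mt-Nd4l 565 ± 65.0 and mt-Nd6 545 ± 49.4 CPM per kb, and their libraries overlapped. mt-Nd6 is the only messenger RNA gene on the minus strand, and its level per base stayed near that of mt-Nd5 (ratio of mt-Nd5 to mt-Nd6 0.993 to 1.18). mt-Nd4 had 388 ± 45 and mt-Nd2 263 ± 41.9 CPM per kb. As counted, mt-Nd3 was lowest in each of the 16 libraries at 130 ± 17.8 CPM per kb, with no overlap with mt-Nd2. Over all libraries the coefficient of variation of a messenger RNA lay between 7.96% and 15.9%.

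**Figure D2:**
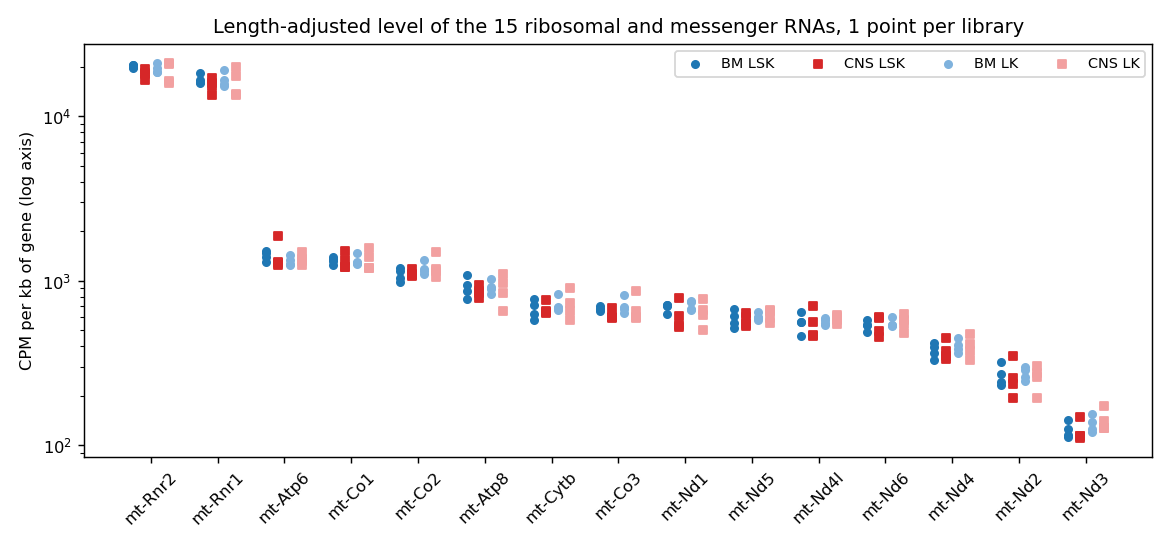
Level of the 15 ribosomal and messenger RNAs in CPM per kb of gene (log axis), 1 point per library, coloured by group and ordered by mean. Both ribosomal RNAs lie above 13510 CPM per kb in all 16 libraries, mt-Atp6 leads the messenger RNAs and mt-Nd3 is lowest, and groups overlap at each gene except mt-Rnr2 in BM LSK and CNS LSK.

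Some of these levels are uncertain because nuclear pseudogenes hold the same sequence. Alignment of the mt- genes to annotated nuclear genes (at least 90% identity over 100 bases) found 17 such genes, and 11 of the 13 protein-coding genes had one. A block of 7 unprocessed pseudogenes on chromosome 1 (GRCm38, from base 24611535 to 24616197, minus strand) was over 99% identical to its mitochondrial counterparts. Gm28661 matched mt-Co2 over 681 bases with 0 mismatches and received 1.00 to 1.01 counts per mt-Co2 count. Gm10222 matched mt-Nd4l over 294 bases with 0 mismatches, and its counts stood to those of mt-Nd4l in the same proportion, 1.00 to 1.01.

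The ratio was above 1 for copies of 3 other genes. Gm10925 received 1.13 to 1.25 counts per count of mt-Atp6, and Gm28437 received 1.11 to 1.15 per count of mt-Co3, both with 0 mismatches over 678 and 783 bases. Gm28438, whose sequence is shown above, received 1.17 to 1.26 counts per count of mt-Nd3. Gm28439 covers 876 bases of mt-Nd4 and received 0.422 to 0.476 counts per mt-Nd4 count. Gm29216 covers 483 bases of mt-Co1 and received 0.258 to 0.347. More diverged copies received few counts: Gm13340, 97.6% identical to mt-Co1, had a median of 0.0411 counts per mt-Co1 count. Gm13339, 96.7% identical to mt-Nd2, had a median of 0.0263.

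The levels of mt-Co1, mt-Co2, mt-Co3, mt-Atp6, mt-Nd3, mt-Nd4 and mt-Nd4l therefore depend on how reads that fit both places were counted, which is not given in the sources used here. For both ribosomal RNAs and for mt-Nd1, mt-Nd2, mt-Nd5, mt-Nd6, mt-Cytb and mt-Atp8, no annotated nuclear gene passed 99% identity. Nuclear sequence outside annotated genes, such as that between the 7 pseudogenes, was not searched, so copies there are not excluded. The transfer RNAs, at 59 to 75 bases, could not reach the 100 aligned bases required, so copies of these were not tested. The counts of the 7 copies on chromosome 1 were next added to their genes. Whether a read was counted at both places is not known, so these sums may hold a read more than once. In the sums, mt-Nd3 stood at 287.5 ± 40.7 CPM per kb, above mt-Nd2 (263) in 13 of 16 libraries. mt-Co2 then stood at 2306 ± 247 CPM per kb, above mt-Co1 at 1747 ± 155 in 16 of 16, and mt-Co3 (1428) and mt-Nd4l (1131) rose in the order past mt-Atp8. The order given above is therefore that of the counts as deposited. For CNS minus BM over both LPC types the log2 difference was 0.03 for Gm28661 and 0.03 for mt-Co2. This match is not separate evidence, since the copy and its gene may hold the same reads.

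**Figure D3:**
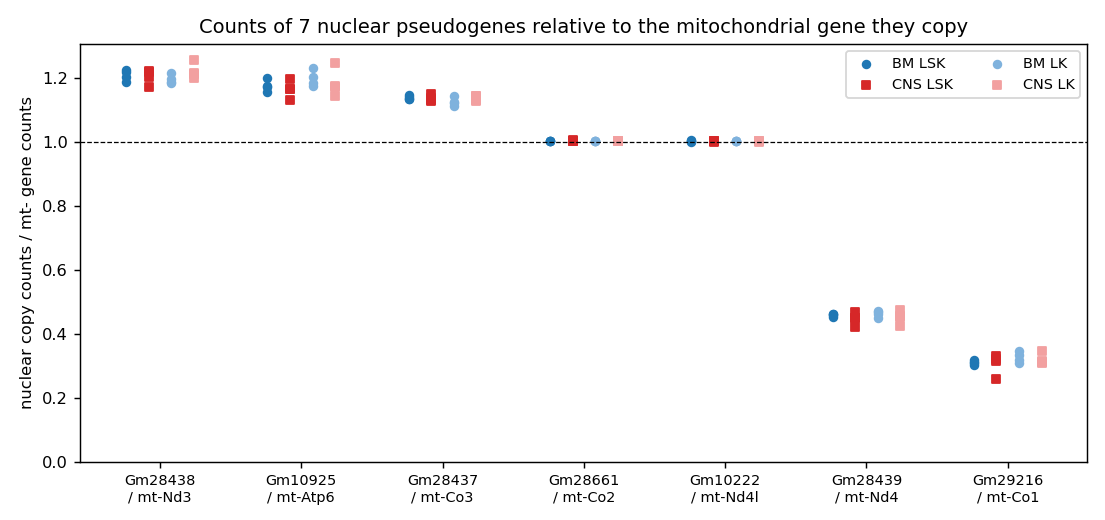
Counts of 7 nuclear pseudogenes divided by the counts of the mitochondrial gene that they copy (vertical axis, from 0), 1 point per library, coloured by group. The dashed line marks equal counts. Copies of mt-Co2 and mt-Nd4l lie on it in every library, those of mt-Nd3, mt-Atp6 and mt-Co3 lie above it, and the partial copies of mt-Nd4 and mt-Co1 lie below.

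Transfer RNA levels differed widely among genes and among libraries. The counts do not separate mature transfer RNAs from the long precursors that contain them, so the order below is one of counts per gene length. mt-Tg was highest at 947 CPM per kb, followed by mt-Tv at 358, mt-Tp at 239, mt-Tk at 232 and mt-Tn at 207. mt-Tm and mt-Th (both 116) and mt-Tl1 (101) followed. The next 8 were mt-Tw, mt-Ty, mt-Te, mt-Ta, mt-Ts1, mt-Tf, mt-Tc and mt-Tt, which ran down from 51.1 to 26.8 CPM per kb. mt-Tq, mt-Td and mt-Ti stood at 22.2, 14.1 and 6.16. mt-Ts2 was lowest at 1.49 CPM per kb.

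No count of mt-Ts2 was found in BM LSK 3, BM LSK 4, CNS LSK 2 and CNS LK 1, which allows levels of up to 0.134, 0.131, 0.121 and 0.161 CPM (3 counts per library). mt-Tr had 0 counts in BM LSK 3, which allows up to 0.134 CPM. Over the 16 libraries the coefficient of variation of the 19 tested transfer RNAs had a median of 35.3%, against 11.6% for the 13 messenger RNAs. It was lowest for mt-Tp (13.01%) and highest for mt-Tg (68.6%). Without BM LSK 1 and CNS LSK 4, which are described next, that of mt-Tg was 40.5% and those of mt-Ti (45.9%) and mt-Ty (44.6%) were higher.

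A pair of libraries stood apart in transfer RNA, and they belonged to different groups. mt-Tg had 173 CPM in BM LSK 1 and 160 CPM in CNS LSK 4, against 16.5 to 95.2 CPM in the other 14 libraries. mt-Tv had 51.1 and 66.9 CPM in the same libraries, against 9.83 to 30.7. mt-Tn had 27.8 and 24.7 CPM against 5.10 to 18.9, and mt-Tk had 27.5 and 24.6 CPM against 3.44 to 19.4. Both libraries were above all 14 others for 7 of 22 transfer RNAs (mt-Tg, mt-Tv, mt-Tn, mt-Tk, mt-Tm, mt-Tt and mt-Tr) and for 0 of the 15 ribosomal and messenger RNAs. The libraries were picked for their high transfer RNA levels, so this count describes them and is not separate evidence. Of these genes, mt-Tr fell below the filter, with 8 and 32 counts in them against 9 in CNS LSK 1. The share of all genes in which both stood highest was not counted.

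The share of small non-coding genes annotated as misc_RNA was also high in these libraries, at 0.588% in BM LSK 1 and 0.649% in CNS LSK 4. It was 0.604% in CNS LK 1, whose transfer RNA share of 0.0147% was within the range of the other libraries. Other small RNA annotations varied in BM LSK 1 and CNS LSK 4. snoRNA held 0.235% and 0.216% (0.158% to 0.235% over all 16 libraries) and scaRNA 0.0236% and 0.0238% (0.0217% to 0.0275%). snRNA held 1.165% and 0.898% (0.898% to 1.43%), and miRNA 0.3995% and 0.393% (0.381% to 0.591%). The part of misc_RNA content in the transfer RNA values was not tested. Differences that moved by over 1.5 times without BM LSK 1 and CNS LSK 4 are given both ways.

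**Figure D4:**
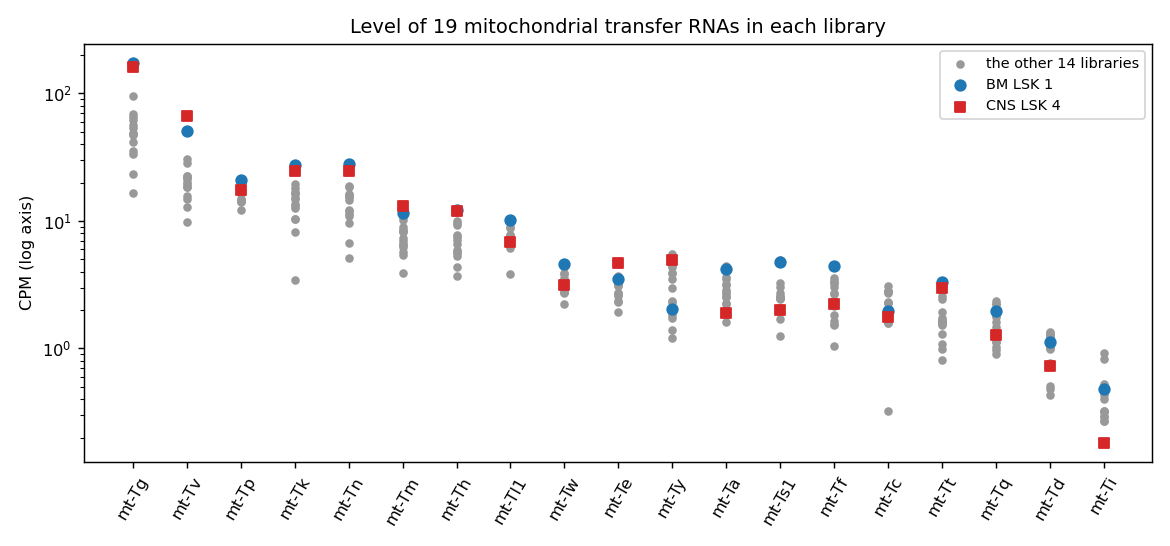
Level of the 19 tested transfer RNAs in CPM (log axis), 1 point per library, ordered by mean; BM LSK 1 is a blue circle and CNS LSK 4 a red square. Both lie above the 14 grey libraries for mt-Tg, mt-Tv, mt-Tk, mt-Tn, mt-Tm and mt-Tt, and among them for mt-Ty and mt-Tc.

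No mitochondrially encoded gene passed the test for a difference between CNS and BM. Over both LPC types, 0 of the 34 tested genes had an adjusted p under 0.05 by the quasi-likelihood test of edgeR (Benjamini-Hochberg adjustment over 18878 genes). Of all genes, 0% passed, although 9.15% had an unadjusted p under 0.05, against 0 of the 34. DESeq2 called 0 of the 34 as well, with 0 at an unadjusted p under 0.05, and 40 of all genes. With the numbered pair as a block, edgeR called 0 of the 34 and 126 of all genes. At an unadjusted p under 0.05 that block gave 4 of the 34 and 13.4% of all genes, and other contrasts are given below. Among messenger RNAs, 7 had a positive and 6 a negative difference, with a median of 0.00 on the log2 scale, and the median over all genes was also 0. Both ribosomal RNAs had negative differences. Among transfer RNAs, 14 were positive and 5 negative, with a median of 0.08.

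The smallest p belonged to mt-Nd1, which encodes a subunit in the membrane arm of complex I. It had 604, 672, 680 and 685 CPM in BM LSK and 502, 511, 587 and 747 in CNS LSK. In LK it had 637, 643, 709 and 722 CPM in BM and 479, 589, 632 and 738 in CNS. The highest value of each CNS group was above all BM values of that LPC type, so the groups overlapped. The log2 difference was −0.16 ± 0.09 (SE; adjusted p 0.604, edgeR), and the CNS library was lower in 6 of 8 numbered pairs. Relative to mt-Co1 per base, mt-Nd1 had its lower value in CNS in 7 of 8 pairs (0.393 to 0.579 over all libraries), a ratio chosen after its values were seen. Without BM LSK 1 and CNS LSK 4 the mt-Nd1 difference was −0.25 (adjusted p 0.241, edgeR), which is over 1.5 times as large but still short of the threshold.

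mt-Rnr2 had 32390, 32460, 31340 and 31760 CPM in BM LSK and 30580, 28830, 26520 and 29180 in CNS LSK, so these groups did not overlap. In LK they did overlap, with 29520, 31130, 29360 and 33560 CPM in BM and 25390, 32800, 25940 and 33260 in CNS. No other mitochondrially encoded gene separated within an LPC type or within a niche. The share of all genes that separate in this way was not counted. The log2 difference of mt-Rnr2 over both LPC types was −0.11 ± 0.07 (SE, adjusted p 0.670, edgeR), with a lower CNS library in 7 of 8 pairs. mt-Tq, the transfer RNA for glutamine, had the third smallest p with −0.30 ± 0.23 (adjusted p 0.755, edgeR), and −0.49 (adjusted p 0.568) without CNS LK 3. For the 15 ribosomal and messenger RNAs, the 95% intervals all included 0 and reached from −0.34 to 0.20. For the 19 transfer RNAs they reached from −0.81 to 0.86.

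Within each LPC type the picture was the same in its counts. Of the 34 genes 0 passed within LSK (0% of all genes) and 0 within LK (0% of all genes). At an unadjusted p under 0.05 there were 0 within LSK, against 5.74% of all genes, and 0 within LK, against 3.99%. DESeq2 also called 0 of the 34, and 0 of all genes, in both. Within LSK the smallest p values belonged to mt-Te, mt-Rnr2 and mt-Nd1, with log2 differences of 0.32 ± 0.20, −0.15 ± 0.10 and −0.17 ± 0.12 (SE; adjusted p 0.862, 0.873 and 0.878, edgeR). Without BM LSK 1 and CNS LSK 4 the difference of mt-Nd1 within LSK was −0.35 (adjusted p 0.473, edgeR), and the median over the 13 messenger RNAs within LSK moved from −0.02 to −0.16, while that over all genes was 0. With single libraries left out, the mt-Nd1 difference was −0.10 without CNS LSK 1, −0.11 without CNS LSK 2 and −0.29 without CNS LSK 4, and the median of messenger RNAs took both signs (−0.10 to 0.04). Within LK the smallest p values belonged to mt-Tq, mt-Nd1 and mt-Tf, with −0.44 ± 0.32, −0.15 ± 0.12 and 0.40 ± 0.35 (adjusted p 0.9999 each, edgeR). Leaving out BM LK 2 moved the mt-Tq difference within LK to −0.27, leaving out CNS LK 4 moved it to −0.28, and leaving out CNS LK 3 moved it to −0.82. The mt-Nd1 difference was −0.05 when CNS LK 1 was dropped and −0.26 when CNS LK 4 was. That of mt-Tf was 0.18 without BM LK 4 and 0.76 without BM LK 3.

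No mitochondrially encoded gene passed the threshold between LSK and LK over both niches either. Of the 34 genes 0 passed, against 0.238% of all genes (43 higher and 2 lower in LSK). This test counted BM and CNS libraries that carry the same code as separate. Its SE and p-values may therefore be too small, and its intervals too narrow. At an unadjusted p under 0.05 there were 4 of 34 genes and 12.1% of all genes, and DESeq2 called 0 of the 34 and 222 of all genes. Of the 13 messenger RNAs, 12 had a negative difference and mt-Atp6 alone a positive one (0.09). Their median was −0.06, against −0.01 over all genes, and it was −0.09 without BM LSK 1 and CNS LSK 4, when 6 instead of 45 genes in all passed. With single libraries left out the median of messenger RNAs ran from −0.10 (without BM LSK 4) to −0.02 (without CNS LSK 2), and the number of all genes that passed was lowest when CNS LK 3 was dropped (15) and highest when CNS LSK 2 was (137). Among transfer RNAs 13 were positive and 6 negative, with a median of 0.14.

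The 4 genes under an unadjusted p of 0.05 were mt-Tg, mt-Tv, mt-Te and mt-Nd3. In BM, mt-Tg had 173, 33.5, 53.9 and 48.0 CPM in LSK and 35.3, 49.0, 69.5 and 23.4 in LK. In CNS it had 41.5, 65.4, 95.2 and 160 CPM in LSK and 56.4, 47.0, 62.4 and 16.5 in LK. LSK and LK overlapped in both niches. The log2 difference was 0.90 ± 0.34 (SE; adjusted p 0.306, edgeR), and 0.30 (adjusted p 0.755) without BM LSK 1 and CNS LSK 4. Leaving out BM LSK 1 alone gave 0.51.

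mt-Tv averaged 26.7 ± 16.6 CPM in BM LSK and 34.8 ± 21.96 in CNS LSK, against 19.8 ± 6.91 in BM LK and 17.6 ± 5.33 in CNS LK (SD, n = 4). Its log2 difference of 0.71 ± 0.28 (SE; adjusted p 0.317, edgeR) became 0.18 (adjusted p 0.790) without both libraries. It was 0.45 without BM LSK 1 alone and 0.46 without CNS LSK 4 alone. mt-Te, the transfer RNA for glutamic acid, had a difference of 0.30 ± 0.14 (SE; adjusted p 0.401, edgeR), and 0.20 without both libraries.

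mt-Nd3 was the messenger RNA with the smallest p. It had 38.7, 43.6, 40.3 and 49.1 CPM in BM LSK against 43.6, 41.5, 48.0 and 53.9 in BM LK. In CNS it had 38.4, 39.5, 39.6 and 51.2 CPM in LSK against 44.0, 44.1, 48.9 and 60.3 in LK. In CNS, 3 of 4 LSK libraries were below all LK libraries, and CNS LSK 4 was not. The log2 difference was −0.18 ± 0.08 (SE; adjusted p 0.401, edgeR). For the 15 ribosomal and messenger RNAs the 95% intervals lay between −0.35 and 0.26 and included 0 in 14 of 15.

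Within BM, 0 of the 34 genes passed (0% of all genes), with 0 at an unadjusted p under 0.05 (6.38% of all genes). The smallest p values belonged to mt-Tg (0.80 ± 0.49), mt-Co2 (−0.12 ± 0.10) and mt-Tw (−0.23 ± 0.21), with adjusted p values of 0.850, 0.897 and 0.913 (edgeR). Without BM LSK 1 these differences were 0.03, −0.08 and −0.48. That of mt-Co2 was −0.06 without BM LK 4, and that of mt-Tw was −0.11 without BM LSK 4 and −0.14 without BM LK 3. Within CNS, 0 of 34 passed (0% of all genes), and 2 had an unadjusted p under 0.05 (6.58% of all genes). These were mt-Tv at 0.99 ± 0.39 and mt-Te at 0.44 ± 0.20, followed by mt-Tg at 0.99 ± 0.49 (adjusted p 0.744, 0.751 and 0.753, edgeR). Without CNS LSK 4 the mt-Tv difference within CNS was 0.48 and that of mt-Tg was 0.60. DESeq2 called 0 of the 34 in BM, against 39 of all genes, and 0 of the 34 in CNS, against 6 of all genes.

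The niche difference was also compared between LPC types. Of the 34 genes 0 had an interaction past the threshold (0% of all genes) and 0 had an unadjusted p under 0.05 (1.49% of all genes), and DESeq2 called 0 of the 34 and 0 of all genes. The smallest p values belonged to mt-Th, mt-Tm and mt-Tv, transfer RNAs for histidine, methionine and valine. Their niche difference in LSK exceeded that in LK by 0.55 ± 0.44, 0.43 ± 0.39 and 0.56 ± 0.55 on the log2 scale (SE; adjusted p 0.9998 each, edgeR). Without BM LSK 1 the interaction of mt-Tv was 1.08, and without CNS LSK 4 it was 0.05; for mt-Th these values were 0.87 and 0.44, and for mt-Tm 0.69 and 0.23.

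**Figure D5:**
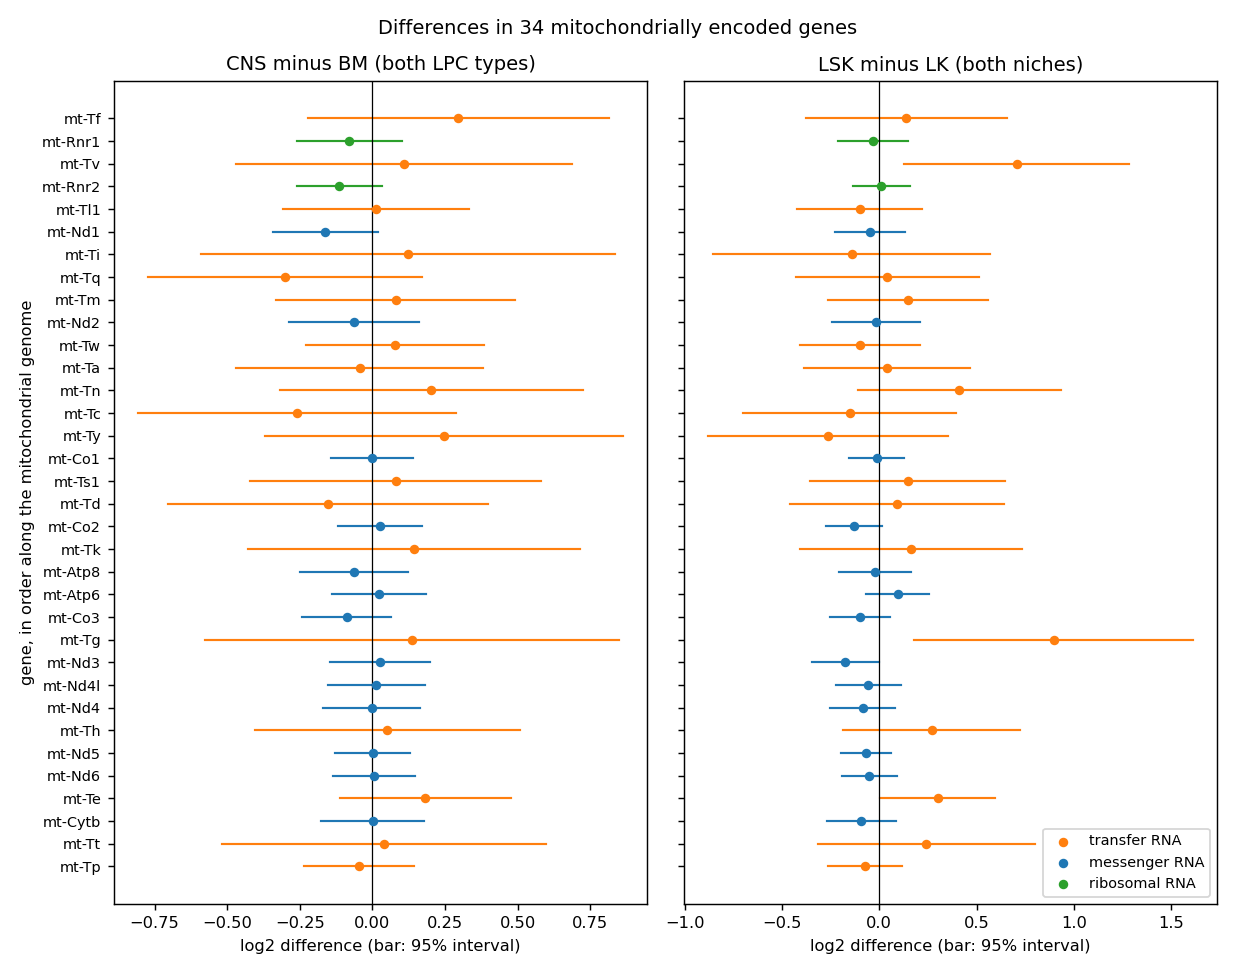
Log2 difference of the 34 tested genes in order along the mitochondrial genome, CNS minus BM over both LPC types (left) and LSK minus LK over both niches (right), with 95% intervals from the edgeR fit; the panels have different horizontal scales. Messenger and ribosomal RNAs lie within −0.18 and 0.09 of 0 in both panels, and the intervals of transfer RNAs are wider, up to 1.61 for mt-Tg.

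The nuclear genes that serve this genome were described with lists chosen with earlier results known, and 0 genes of any list passed the threshold between niches or between LPC types (against 0% and 0.238% of all genes). Of 18 tested genes for mitochondrial transcription, replication and the nucleoid, 9 were positive and 9 negative for CNS minus BM (median −0.01). The smallest p was that of Atad3a, a nucleoid-associated ATPase, with −0.11 ± 0.04 (SE; adjusted p 0.483, edgeR). For LSK minus LK, 6 were positive and 12 negative (median −0.04), led by Mterf3, of the mitochondrial transcription termination factor family, with −0.21 ± 0.10 (adjusted p 0.403, edgeR).

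Of 32 genes for processing, modification and decay of mitochondrial RNA, 8 were positive and 24 negative for CNS minus BM (median −0.06). Fastkd5, which acts on messenger RNA ends that lack a transfer RNA, had the smallest p with −0.29 ± 0.13 (SE; adjusted p 0.530, edgeR). For LSK minus LK, 10 were positive and 22 negative (median −0.05). There 1110008L16Rik, the identifier for Prorp, the nuclease that cuts the 5′ ends of mitochondrial transfer RNAs, led with −0.16 ± 0.07 (adjusted p 0.380, edgeR).

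Of 22 aminoacyl-tRNA synthetase genes, which charge transfer RNAs, 8 were positive and 14 negative for CNS minus BM and 7 and 15 for LSK minus LK (medians −0.02 and −0.02). Aars2 led the first with 0.12 ± 0.08 (adjusted p 0.733, edgeR) and Hars2 the second with −0.12 ± 0.06 (adjusted p 0.430, edgeR). Of 18 translation factors, 6 were positive and 12 negative (median −0.02) for CNS minus BM, where Taco1, a translational activator of mt-Co1, had 0.14 ± 0.09 (adjusted p 0.666, edgeR). For LSK minus LK, 4 were positive and 14 negative (median −0.04), and Oxa1l, the inner-membrane insertase, had −0.12 ± 0.06 (adjusted p 0.397, edgeR).

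Of 10 regulators of mitochondrial biogenesis, 4 were positive and 6 negative between niches and 5 and 5 between LPC types (medians −0.04 and 0.00). Yy1 led the first with −0.12 ± 0.05 and Esrra the second with −0.20 ± 0.10 (adjusted p 0.482 and 0.455, edgeR). Of 16 genes for mitophagy and turnover, 10 were positive and 6 negative between niches and 8 and 8 between LPC types (medians 0.02 and −0.01). The autophagy receptor Calcoco1 led the second with −0.26 ± 0.12 (adjusted p 0.400, edgeR).

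Nuclear subunits of the complexes to which the mitochondrial messenger RNAs contribute had mostly negative differences that were small and did not pass. For CNS minus BM, 29 of 36 complex I subunits, 7 of 9 of complex III, 12 of 12 of complex IV and 11 of 15 of complex V were negative. Their medians were −0.04, −0.04, −0.06 and −0.03, against 0 over all genes. In LSK the mean summed CPM in BM and CNS were 825 and 755 for complex I, 324 and 303.5 for III, 535 and 482 for IV and 1442 and 1332 for V. Libraries of BM LSK and CNS LSK overlapped for each complex. In LK, BM and CNS were close, with 816 and 823, 319 and 322, 508 and 515 and 1408 and 1402 CPM in the same order. Ndufv1, the subunit that binds NADH, had the smallest p of complex I with −0.16 ± 0.05 (SE; adjusted p 0.389, edgeR). Cox4i1 had −0.12 ± 0.05 in complex IV (adjusted p 0.459, edgeR), Uqcrq −0.11 ± 0.07 in complex III (adjusted p 0.726, edgeR) and Atp5j2 −0.12 ± 0.05 in complex V (adjusted p 0.492, edgeR).

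For LSK minus LK, 28 of 36, 6 of 9, 8 of 12 and 11 of 15 were negative, with medians of −0.06, −0.03, −0.04 and −0.03 against −0.01 over all genes. In BM the mean summed CPM given above were higher in LSK than in LK for each complex, and in CNS they were lower. Ndufab1, an acyl carrier protein in complex I, had −0.19 ± 0.07 (SE; adjusted p 0.251, edgeR). Uqcrq, Cox7c and Atp5c1 led the other complexes with −0.11 ± 0.07, −0.09 ± 0.06 and −0.08 ± 0.05 (adjusted p 0.566, 0.594 and 0.472, edgeR).

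Summed CPM of the mitochondrially encoded subunits, divided by those of the nuclear subunits of the same complex, gave a ratio that was not adjusted for length. It was 3.76 ± 0.353 for complex I (7 mitochondrial and 36 nuclear genes) over the 16 libraries (SD). For complex III it was 2.52 ± 0.330 (1 and 9 genes), for complex IV 6.62 ± 0.704 (3 and 12) and for complex V 0.804 ± 0.0750 (2 and 15). In complex I the lowest group mean was 3.65 ± 0.373 (BM LSK) and the highest 3.85 ± 0.401 (CNS LSK; SD, n = 4), and the difference is less than the spread within a group. The ratio of complex I holds mt-Nd3, mt-Nd4 and mt-Nd4l, and those of complexes IV and V hold mt-Co1, mt-Co2, mt-Co3 and mt-Atp6. The counts of all these genes are uncertain as described above.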

How the data were processed

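The deposited table gives whole-number counts per Ensembl gene identifier for 16 libraries. The authors' file name calls them normalised, but their library totals differ, so they were treated as raw counts. The build GRCm39 and the tool DESeq2 are named in the submitters' processing notes. The aligner, counter, annotation and any use of strand or molecular identifiers are not given in the sources used here. Libraries were made with a low-input kit that keeps strand, per the labels' protocols. Groups followed the sample titles, and 0 columns of per-sample values were unused. Identifiers without a symbol held 41.8% of counts and stayed in the library sizes, although it is not known what they are.

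Genes with a mean of at least 10 counts (18878) entered a model of 4 group means in edgeR 4.0.16 under R 4.3.3, after TMM scaling. Its quasi-likelihood test (two-sided) was run for 7 contrasts, with Benjamini-Hochberg adjusted p-values read at 0.05. CPM values use the TMM-scaled library sizes. The fit was tested on simulated data before use. DESeq2 1.42.0 was an alternative, beside other scalings and filters, a replicate block and leaving out each library. mt- sequences were aligned with blastn 2.17.0 to nuclear genes of GRCm38, a different build from that of the counts, so coordinates are those of GRCm38. The labels do not say that libraries of a group came from separate animals, so p-values measure the spread between these libraries, which may be technical.

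All messenger and ribosomal RNA genes were named, the tested transfer RNAs, the 3 genes with the smallest p in each contrast, and the gene with the smallest p in each list, except where its value is not reported here. The genes and lists were chosen with earlier results of these data known.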

Additional observations from a re-analysis of the deposited data

Results flagged for a closer look

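In 148 sets of 4 libraries (34 genes and 3 classes of RNA, each in 4 groups), 16 held a library far from the other 3 of its group by Dixon's test at 95%, while chance alone marks about 1 in 20 sets, or 7.4 here. The causes were not tested.

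BM LSK 1 was such a library for transfer RNA as a class, with 0.0361% of all counts against 0.0134% to 0.0151% in the other BM LSK libraries. Its mt-Tg was 173 CPM against 33.5 to 53.9, its mt-Tn 27.8 against 9.55 to 12.2, its mt-Th 12.2 against 5.58 to 6.59 and its mt-Ta 4.22 against 2.55 to 2.79. Its mt-Nd1 was low, at 604 CPM against 672 to 685.

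CNS LSK 4 was high for 3 messenger RNAs: mt-Atp6 at 1279 CPM against 852 to 887, mt-Cytb at 868 against 731 to 743, and mt-Nd3 at 51.2 against 38.4 to 39.6. It was also high for 2 transfer RNAs, mt-Tm at 13.1 CPM against 7.32 to 8.27 and mt-Tt at 2.96 against 1.53 to 1.66. In CNS LSK 1, mt-Co3 had 535 CPM against 465 to 473 in the rest of its group.

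In BM LK 4, mt-Cytb had 956 CPM against 755 to 788, and mt-Nd6 had 312.0 CPM against 276.5 to 280.3. In CNS LK 4, mt-Tn was low at 5.10 CPM against 15.5 to 16.4. In CNS LK 3, mt-Tq had 2.24 CPM against 0.906 to 1.13.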

How the results depend on the processing

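Each contrast was refitted under 25 or 26 alternatives (scalings, filters, DESeq2, a replicate block, each library left out). The count of mitochondrially encoded genes past the threshold was 0 in all of them for 5 contrasts, and in no contrast did any of its 3 genes with the smallest p change direction. Those 3 were chosen by their p in these same data, so their steady direction is not separate evidence. Many other genes did change sign in some alternative. For CNS minus BM over both LPC types 20 of 34 did, and for LSK minus LK over both niches 16 of 34. In each of the other contrasts 20 to 25 of 34 did. For CNS minus BM over both LPC types, mt-Tv (0.11) and mt-Tg (0.14) were −0.15 and −0.07 without CNS LSK 4. Without a filter on low counts, 2 passed for LSK minus LK over both niches (mt-Tg 0.84, adjusted p 0.00132; mt-Tv 0.65, adjusted p 0.00660, edgeR) and 1 within CNS (mt-Tv 0.93, adjusted p 0.0240, edgeR); 53366 genes were then tested, 290 and 38 of all genes passed, and the median of all genes moved to 0.14 and 0.11. For LSK minus LK over both niches, the smallest adjusted p of a mitochondrially encoded gene ran from 0.00132 to 0.510 over the alternatives, and for CNS minus BM from 0.180 to 0.9997. Leaving out BM LSK 1 and CNS LSK 4 together was chosen after seeing the data, and 0 mitochondrially encoded genes passed.

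The replicate block was the numbered pair for CNS minus BM and for the interaction. For LSK minus LK it was the number in the library title, which joins LSK and LK libraries that carry different codes. With these blocks 0 of 34 passed in each contrast, against 0.667% of all genes for CNS minus BM and 0.858% for LSK minus LK (126 and 162 genes). At an unadjusted p under 0.05 the block gave 4 of 34 for CNS minus BM (13.4% of all genes), 3 within LSK (10% of all genes) and 1 within LK (6.26%); within LSK and LK, 26 and 12 of all genes passed, instead of 0. For LSK minus LK the block on the title number gave 4 of 34 over both niches (14.1% of all genes), 0 within BM (7.93%) and 4 within CNS (7.88%). The smallest adjusted p values under these blocks were 0.180 for mt-Nd1 between niches (−0.18, edgeR) and 0.0900 for mt-Nd3 between LPC types (−0.17, edgeR). Libraries of a pair deviated together (r over 0.1) in 6 of 8 pairs at a mean of at least 10 counts (−0.03 to 0.30) and in 8 of 8 at 50 counts (0.34 to 0.62). Of 16 libraries, 11 and 16 correlated best with the other library of their pair. The labels give paired libraries a shared code without saying what it means, so what the pairs share was not settled. The main tests did not use the pairs. LSK minus LK over both niches thus counted both libraries of a pair as separate, and no fit used the pair for that contrast.

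Class shares depend on the denominator. As a percent of counts in identifiers with a symbol, messenger RNA was 1.39, 1.40, 1.46 and 1.45 in BM LSK, CNS LSK, BM LK and CNS LK, ribosomal RNA 8.10, 7.53, 8.09 and 7.71, and transfer RNA 0.0333, 0.0393, 0.0267 and 0.0265. As a percent of nuclear protein-coding counts, messenger RNA was 1.796, 1.797, 1.89 and 1.88, ribosomal RNA 10.4, 9.68, 10.5 and 10.01, and transfer RNA 0.0430, 0.0504, 0.0346 and 0.0344. Depth limits the rarest transfer RNAs, with 0 counts of mt-Ts2 in 4 libraries.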

Other observations

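Among the nuclear genes of the lists, Lars2, the mitochondrial leucyl-tRNA synthetase, averaged 5463 CPM over the 16 libraries (4436 to 8254). The next highest synthetases were Gars at 90.8 and Kars at 90.3 CPM, which serve the cytosol as well. These levels are not adjusted for length, and Lars2 was singled out after its values were seen. Whether all reads counted at Lars2 came from its messenger RNA was not tested, so the value is not read as a level of the enzyme.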
